A study of Mus musculus with 20 samples.

Results

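Heat shock factor 1 (HSF1) was tested here for its part in the late heat shock response of mouse fibroblasts. For each gene, the change from 0 h to the late window (3, 4, 6 and 8 h of heat shock) in cells with HSF1 was taken, and the same change in cells without it was subtracted. The genes were then sorted by which genotype moved. The contrast used 14 of the 20 arrays of the series, and 10625 genes were tested on it. At an adjusted p under 0.05, 10 genes (0.0941%) passed, 8 higher (0.0753%) and 2 lower (0.0188%). At an unadjusted p under 0.01, 237 genes (2.23%) were kept for sorting, 147 with a positive (1.38%) and 90 with a negative difference (0.847%).

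Each array compared 1 fibroblast mRNA sample (Cy5) with a common pool (Cy3) made from unheated mouse fibroblasts and from ones given 1 h of heat. The groups of the contrast were HSF1 +/+ (WT) at 0 h, n = 3, HSF1 +/+ late, n = 4, HSF1 -/- (KO) at 0 h, n = 3, and HSF1 -/- late, n = 4. The late arrays of a genotype are 1 array at each of 3, 4, 6 and 8 h, so their spread includes change over time. The other 6 arrays, at 0.5, 1 and 2 h in each genotype (the early window), entered the fit to estimate the spread. The labels call the material fibroblasts and a cell line. They do not say whether the arrays of a group came from separate cultures or whether each genotype is 1 clone, so p-values measure only the spread between these arrays, and HSF1 and any other difference between the cells cannot be told apart. The heating temperature and whether cells recovered before harvest are not given in the sources used here.

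HSF1 is held inactive in unstressed cells. When proteins unfold, it forms trimers in the nucleus and binds heat shock elements, inverted repeats of the unit nGAAn, in the promoters of chaperone genes. Its best known targets are the inducible HSP70 chaperones, their HSP40 cofactors, which hand over clients and start ATP hydrolysis, the HSP110 exchange factors, HSP90, and small heat shock proteins, which hold unfolded proteins without ATP. Fibroblasts without HSF1 are a standard model in which this induction is lost.

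Values are log ratios to the pool, read as log2. The base is not stated, and with natural logs the folds given here would be too small. Arrays held 39037 to 42220 values, and their number limits the precision. For Hsf1 and Hsf2, 0 probes name them alone, so their transcripts were not analysed here and the deletion itself was not checked. Of the 7 lists of cell type markers, 0 had a gene with an unadjusted p under 0.01 for the difference of responses (limma), beside 2.23% of all genes. With 5 to 10 measured genes per list, this count says little about the markers. A ratio to a fibroblast pool gives no absolute level, so whether fibroblast markers are present was not testable. The 10 measured fibroblast markers had a median difference of responses of -0.03, beside 0.02 over all genes. The medians of the other lists ran from -0.36 (5 adipocyte markers) to 0.59 (5 endothelial markers), and the part of other cell types in the results was not tested.

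The sorted genes fell into 5 classes, in which a genotype was said to move when its late minus 0 h difference was at least 1 in size (log2, that is 2-fold). These names describe sizes and are not tests. In 56 genes (23.6% of the sorted) the response was lost, since only WT moved, with 28 rises and 28 falls. In 54 genes (22.8%) it was gained, since only KO moved, with 18 rises and 36 falls. In 9 genes (3.80%) it was reversed, with both genotypes moving in opposite directions. In 1 gene, S100a11, both moved the same way, and in 117 genes (49.4%) neither moved that far. The last group is called split, as the genotypes moved apart by smaller steps. Of the 10 genes past the adjusted threshold, 5 were lost rises, 1 was a lost fall, 3 were gained falls and 1 was split. At the edges, Rrm1 was the last gene inside the adjusted threshold (adjusted p = 0.0498) and Zfp362 the first outside (0.0534). Gnl3 (limma, unadjusted p = 0.00997) and Rpa3 (unadjusted p = 0.0101) lay on either side of the sorting threshold. Cryab (1.01) just counted as moving in WT and Hspa8 (0.996) just did not.

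**Figure D1:**
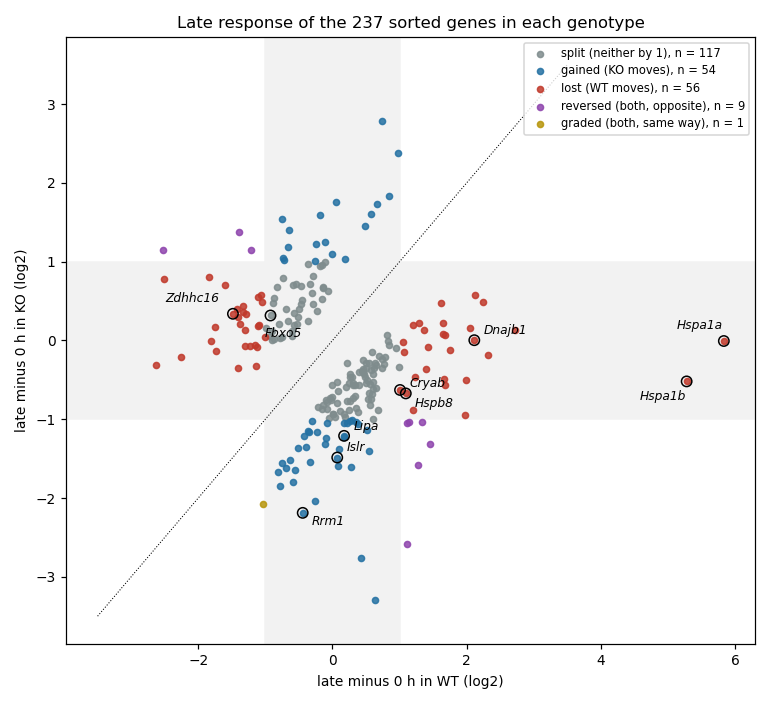
Late minus 0 h log2 difference of each of the 237 sorted genes in WT (horizontal) and in KO (vertical), coloured by class; the grey bands mark changes under 1 in size, and circles mark the 10 genes past the adjusted threshold. Hspa1a (5.83 in WT, -0.01 in KO) and Hspa1b (5.28 and -0.52) lie far to the right of all other points.

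The lost rises held the largest differences among the sorted genes, those of the inducible HSP70 genes. Hspa1a and Hspa1b encode the inducible HSP70 proteins. Hspa1a was at -2.33, -2.76 and -2.36 in the WT arrays at 0 h and at 3.81, 2.55, 3.92 and 3.12 at 3, 4, 6 and 8 h. In KO it was at -2.76, -2.66 and -2.37 at 0 h and at -2.43, -2.84, -2.75 and -2.38 late. Among the 14 contrasted arrays, the 4 late WT arrays lay above all others, and the late KO arrays overlapped the unheated ones. Hspa1a rose in WT by 5.83 ± 0.75 (SE, 57.0-fold, limma adjusted p = 0.00184), KO gave -0.01 ± 0.75 (adjusted p = 0.999), and the difference was 5.84 ± 1.06 (adjusted p = 0.0438).

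Hspa1b showed the same picture, with a value missing at WT 0 h replicate 1, so that its fit rests on 13 of the 14 arrays. It was at -1.30 and -1.32 at WT 0 h and at 4.33, 3.27, 4.74 and 3.54 late. In KO it was at -1.40, -1.70 and -1.48 at 0 h and at -2.23, -1.997, -2.17 and -1.79 late. Within the contrast the late WT arrays again stood clear of the others, while every late KO array lay below the unheated KO arrays. The difference of responses was 5.80 ± 0.99 (adjusted p = 0.0438), made of a rise of 5.28 ± 0.74 in WT (adjusted p = 0.00233) and -0.52 ± 0.66 in KO (adjusted p = 0.681). Each of these near-identical genes had 1 probe, which can bind transcripts of both, so their values are not independent.

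Dnajb1, the HSP40 cofactor that works with inducible HSP70, was at -0.56, -0.84 and -0.45 at WT 0 h and at 1.88, 1.02, 1.75 and 1.33 late. In KO it was at -1.01, -1.14 and -0.72 at 0 h and at -1.07, -0.97, -0.70 and -1.07 late. The WT groups did not overlap and the KO groups did. Dnajb1 rose in WT by 2.11 ± 0.25 (4.33-fold, adjusted p = 0.00121) against 0.00 ± 0.25 in KO, a difference of 2.11 ± 0.35 (adjusted p = 0.0402) that its 3 probes gave as 1.60 to 2.76.

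Both small heat shock genes that passed moved in opposite directions in the genotypes. Cryab encodes alpha B-crystallin. It went from 1.00, 0.84 and 1.13 to 2.07, 1.59, 2.12 and 2.19 in WT, and from 0.87, 0.56 and 0.61 to 0.33, 0.06, -0.18 and 0.00 in KO. In neither genotype did the late arrays overlap those at 0 h. It rose in WT by 1.01 ± 0.17 (adjusted p = 0.00378) and fell in KO by 0.63 ± 0.17 (adjusted p = 0.0261), and the difference was 1.64 ± 0.24 (adjusted p = 0.0360), the smallest p of all genes.

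Hspb8, a small heat shock protein that works with the co-chaperone Bag3, went from 0.31, -0.32 and -0.22 to 1.30, 0.64, 1.15 and 0.98 in WT. In KO it went from 0.39, 0.17 and 0.31 to -0.26, -0.47, -0.47 and -0.33. The late arrays were above all of 0 h in WT and below all of 0 h in KO. It rose by 1.09 ± 0.20 in WT (adjusted p = 0.00540) and fell by 0.67 ± 0.20 in KO (adjusted p = 0.0403), a difference of 1.77 ± 0.29 (adjusted p = 0.0402). The 3 probes of Cryab gave 1.56 to 1.75 and those of Hspb8 1.69 to 1.86.

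These chaperones did not part at the same time, as the single arrays of the early window show. At 0.5, 1 and 2 h, relative to the 0 h means, Hspa1a stood at 0.58, 4.55 and 5.80 in WT, and Dnajb1 at 1.16, 2.06 and 2.14. Cryab stood at -0.17, -0.15 and 0.26 in WT, and Hspb8 at -0.03, 0.27 and 0.77. At 2 h Hspa1a, Dnajb1 and Hspb8 lay within the range of their own late WT values, and Cryab lay below it. The difference of responses in the early window was 3.29 for Hspa1a, 3.70 for Hspa1b, 1.63 for Dnajb1, 0.49 for Hspb8 and 0.02 for Cryab. It uses the same 0 h arrays as the late one. With limma, 0 genes passed the adjusted threshold in that window, and 889 (8.37%) had an unadjusted p under 0.05.

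**Figure D2:**
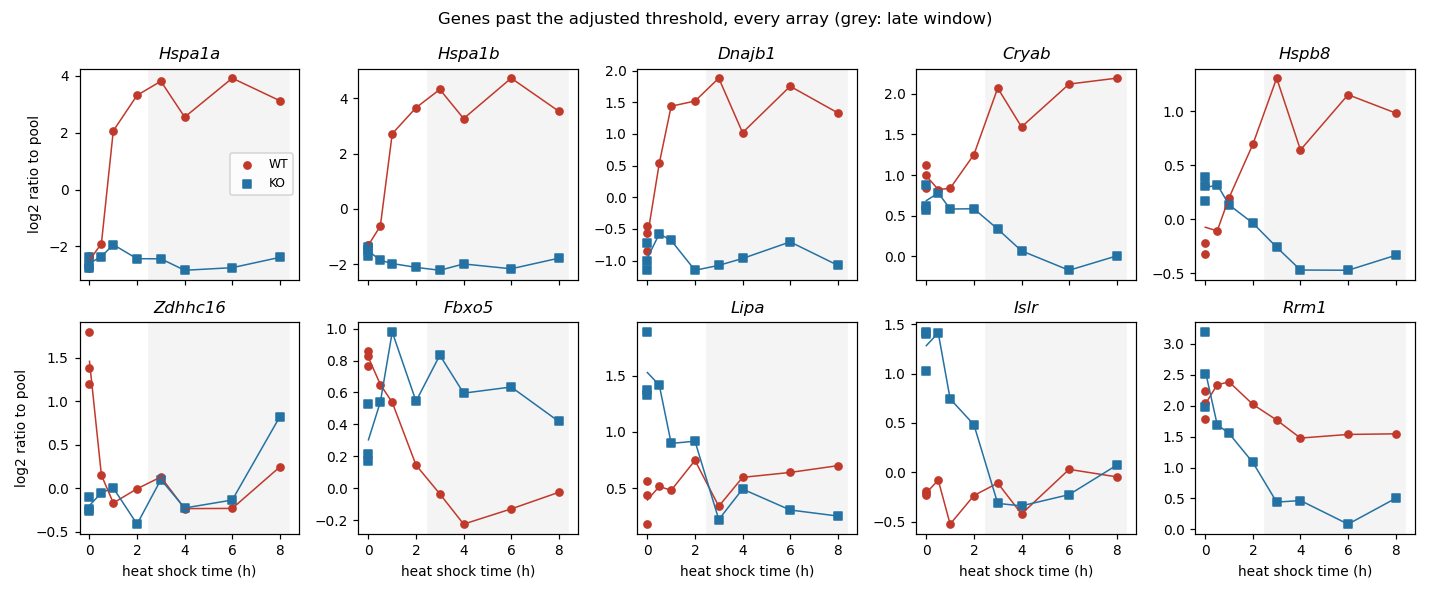
Log2 ratio to the pool against heat shock time (h) for the 10 genes past the adjusted threshold, 1 point per array, WT as red circles and KO as blue squares, with lines through the mean at each time and the late window in grey. In WT, Hspa1a and Hspa1b climb by 1 h and stay up, Cryab and Hspb8 climb from 2 or 3 h, and the 5 chaperones show no such climb in KO.

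The other chaperones among the sorted genes did not pass the adjusted threshold, although several passed in WT alone. Hsph1, the HSP110 exchange factor of HSP70, was at -0.53, -0.38 and -0.06 at WT 0 h and at 2.21, 1.76, 2.07 and 1.94 late. In KO it was at -0.74, -1.09 and -0.82 at 0 h and at -0.86, -0.99, -1.18 and -1.25 late. The late WT arrays did not overlap any other, and the KO groups overlapped. Hsph1 rose in WT by 2.32 ± 0.37 (adjusted p = 0.00269), and the difference of 2.50 ± 0.52 had an adjusted p of 0.0933, with 2.15 to 2.75 over its probes.

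Hspa8, the constitutive HSP70, rose in WT by 1.00 ± 0.20 (adjusted p = 0.00792), and its difference was 1.33 ± 0.28 (adjusted p = 0.0933), with the same sign in all 7 probes. Hsp90aa1, the inducible HSP90, rose in WT by 1.36 ± 0.19 (adjusted p = 0.00184), and its difference was 1.23 ± 0.27 (adjusted p = 0.126), positive in 10 of 11 probes. Hspa2, an HSP70 best known from testis, rose in WT by 1.68 ± 0.33 (adjusted p = 0.00761), with a difference of 2.24 ± 0.47 (adjusted p = 0.0933) on 1 probe. In KO none of these 3 late changes passed (adjusted p of 0.309 for Hspa8, 0.729 for Hsp90aa1 and 0.313 for Hspa2).

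Dnaja1 and Zfand2a followed with smaller differences. Dnaja1, a cytosolic HSP40, rose in WT by 1.05 ± 0.21 (adjusted p = 0.00887) with a difference of 1.07 ± 0.30 (adjusted p = 0.331). Zfand2a, a proteasome partner induced by stress, rose in WT by 1.29 ± 0.25 (adjusted p = 0.00618) with a difference of 1.07 ± 0.35 (adjusted p = 0.421). In KO, their values were -0.02 and 0.22.

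Known HSF1 targets were followed as a list of 36 genes, of which 31 were measured. Of these, 29 had a positive difference, 15 (48.4%) were among the sorted genes, all positive, and 5 passed the adjusted threshold, beside 2.23% sorted over all genes. The median difference of the list was 0.89, beside 0.02 over all genes. In WT, 20 of the 31 rose and 0 fell, and in KO 0 rose and 4 fell (adjusted p under 0.05). Of all genes, 3.6% rose and 3.67% fell in WT, and 3.86% rose and 6.8% fell in KO. The list was chosen with earlier results of these data known and got no test. Members outside the sorted genes included Mt2, a metallothionein, with 1.68 ± 0.63 (adjusted p = 0.484), and Hspb1, the small heat shock protein HSP27, with 1.21 ± 0.56 (adjusted p = 0.565). Mt2 rose in WT by 2.82 ± 0.45 (adjusted p = 0.00269), and KO gave 1.14 ± 0.45 (adjusted p = 0.114). Bag3, the HSP70 co-chaperone, gave 0.48 ± 0.65 (adjusted p = 0.881), with probes from -2.75 to 2.48. For Hspb1, the 2 probes differed in sign (-0.29 and 2.71).

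**Figure D3:**
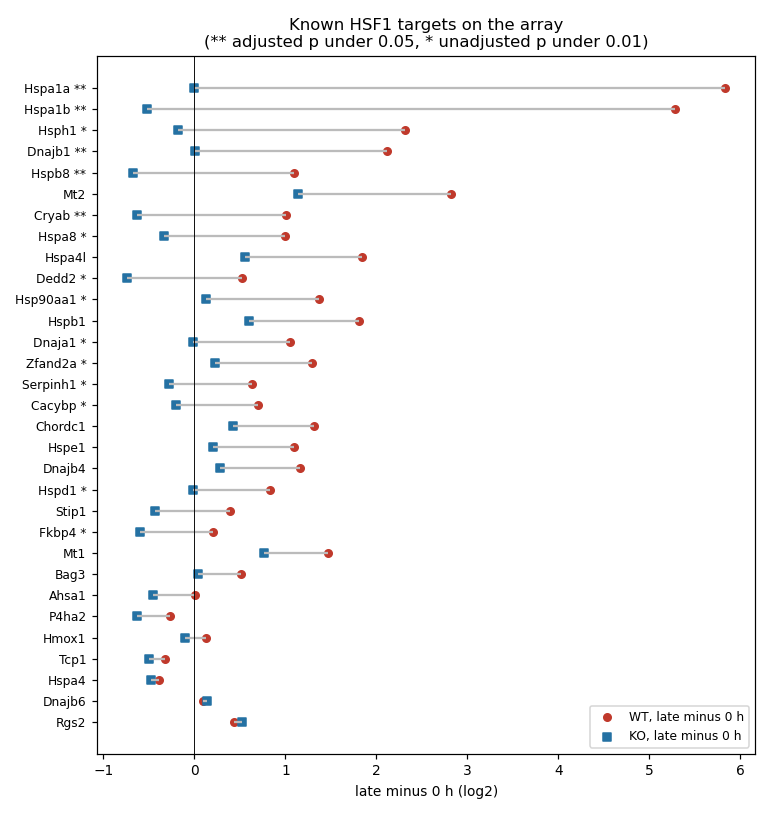
Late minus 0 h log2 difference in WT (red circles) and KO (blue squares) for the 31 measured known HSF1 targets, ordered by the difference between the genotypes (grey line). WT lies to the right of KO for 29 of 31 genes, and 2 asterisks mark the 5 genes past the adjusted threshold.

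By chaperone family, sorted genes were most frequent in the HSP70 and HSP110 list, with 5 of 11 measured members (Hspa1a, Hspa1b, Hsph1, Hspa2 and Hspa8) and a median difference of 1.29. Over all genes, 2.23% were sorted and the median difference was 0.02. A single sorted gene in a short list says little about its family. The small heat shock proteins gave 2 of 7 (Cryab and Hspb8, median 0.51), and HSP90 and its co-chaperones 3 of 16 (Hsp90aa1, Cacybp and Fkbp4, median 0.35). Cacybp is a co-chaperone that binds Siah ubiquitin ligases, and Fkbp4 is an HSP90-bound prolyl isomerase. The DNAJ cofactors gave 2 of 17 (Dnajb1 and Dnaja1, median 0.36), and the mitochondrial chaperones 1 of 12 (Hspd1, median 0.26). The CCT chaperonin gave 1 of 13 (Cct3, median 0.17), and the chaperones of the endoplasmic reticulum 2 of 22 (Hspa5 and Serpinh1, median 0.33). All of these sorted chaperones had positive differences.

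The way the difference arose varied within these families. Hspd1, mitochondrial HSP60, rose in WT by 0.84 ± 0.18 (adjusted p = 0.0109) and was at -0.01 ± 0.18 in KO. Fkbp4 gave 0.21 ± 0.16 in WT (adjusted p = 0.441) and fell in KO by 0.59 ± 0.16 (adjusted p = 0.0223). Hspa5, the HSP70 of the endoplasmic reticulum known as BiP, gave 0.11 ± 0.19 in WT (adjusted p = 0.756) and fell in KO by 0.90 ± 0.19 (adjusted p = 0.00616). Its difference of 1.01 ± 0.27 (adjusted p = 0.286) had the same sign in all 10 probes, from 0.70 to 1.32. For Hspd1 the WT rise carried the difference of the gene mean, with probes from -0.78 to 1.798. For Hspa5 the KO fall did. For Fkbp4 the KO fall was the larger part in the gene mean, but not in every probe. Its probes gave differences from 0.09 to 1.47. The probe with the largest difference gave 0.89 in WT and -0.59 in KO, and another gave 0.35 and -0.75.

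Promoters of the lost rises were searched for the shortest inverted pair of heat shock units, TTCNNGAA or GAANNTTC, each of which reads the same on both strands, in the 250 bases before the start of transcription (RefSeq, GRCm38.p6). At least 1 window was found for 8572 of the 10625 genes, and 12.1% of these genes held a match in 1 or more. It was held by 6 of the 20 lost rises with a window (30%), by 7 of 25 lost falls (28%), by 1 of 12 gained rises (8.33%), by 2 of 26 gained falls (7.69%), and by 12 of 27 known HSF1 targets (44.4%). A run of 3 such units, which adds another inverted unit at the same spacing, was in 0.420% of these genes, in 0 of the lost rises and in 3 of the known targets (11.1%). The windows below are those of the chaperones with a match and of Zfand2a, a known target too, with the match in capitals; Prdm1 was the other lost rise with one. The Hspa1a and Hspa1b windows are identical at 247 of 250 bases (98.8%), with the match at bases -104 to -97. Dnaja1 has it at -124 to -117 in 1 of its 3 windows, from different starts, and the other 2 held none. Hsph1 has 1 match, at -33 to -26 of the start shown and -54 to -47 of its other start, and Zfand2a has it at -196 to -189. The windows searched for Dnajb1, Hspb8 and Hspa2 held no match, and those of Cryab and Hsp90aa1 were not analysed here. A match is a description of sequence and not a measured binding site.
Hspa1a (chr17:34972157-34972406, minus strand): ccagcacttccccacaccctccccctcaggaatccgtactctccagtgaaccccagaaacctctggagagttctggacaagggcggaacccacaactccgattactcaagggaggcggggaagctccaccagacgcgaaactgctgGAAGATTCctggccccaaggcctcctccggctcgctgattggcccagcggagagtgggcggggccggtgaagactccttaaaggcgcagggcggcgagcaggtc
Hspa1b (chr17:34959239-34959488, minus strand): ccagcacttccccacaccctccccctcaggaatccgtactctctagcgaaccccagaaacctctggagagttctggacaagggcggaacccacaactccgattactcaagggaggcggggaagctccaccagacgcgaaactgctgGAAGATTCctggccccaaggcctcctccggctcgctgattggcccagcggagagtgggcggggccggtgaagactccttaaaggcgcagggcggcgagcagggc
Hsph1 (chr5:149636337-149636586, minus strand): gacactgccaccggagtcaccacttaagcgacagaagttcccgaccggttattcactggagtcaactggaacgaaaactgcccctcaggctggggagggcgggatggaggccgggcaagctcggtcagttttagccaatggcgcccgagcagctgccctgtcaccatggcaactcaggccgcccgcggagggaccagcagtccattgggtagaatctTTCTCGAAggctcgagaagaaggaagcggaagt
Dnaja1 (chr4:40722218-40722467, plus strand): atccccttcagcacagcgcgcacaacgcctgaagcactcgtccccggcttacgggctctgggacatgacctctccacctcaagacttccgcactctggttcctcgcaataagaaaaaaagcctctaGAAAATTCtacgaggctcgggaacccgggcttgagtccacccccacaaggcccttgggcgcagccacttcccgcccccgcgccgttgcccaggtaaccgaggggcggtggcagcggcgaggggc
Zfand2a (chr5:139484492-139484741, minus strand): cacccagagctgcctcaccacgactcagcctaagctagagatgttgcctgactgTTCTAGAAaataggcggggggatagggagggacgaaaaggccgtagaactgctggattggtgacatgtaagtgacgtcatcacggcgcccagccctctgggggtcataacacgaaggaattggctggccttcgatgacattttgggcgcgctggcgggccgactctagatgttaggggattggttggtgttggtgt

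Genes outside the chaperone lists made up the rest of the 28 lost rises. Chrd, which encodes the secreted BMP antagonist chordin, went in WT from -1.42, -1.81 and -1.30 to 1.48, 0.42, 1.56 and 1.42, and in KO from -0.85, -1.49 and -1.19 to -1.05, -0.997, -1.14 and -0.96. Of the contrasted arrays, the late WT ones lay above the rest, with 4 h the lowest of them. Chrd rose in WT by 2.73 ± 0.43 (adjusted p = 0.00269), and its difference was 2.59 ± 0.61 (adjusted p = 0.192). Arhgap19 went in WT from -0.32, -0.95 and -0.62 to 0.84, 1.24, 1.40 and 0.71 without overlap. It rose by 1.68 ± 0.23 (adjusted p = 0.00184), with a difference of 1.61 ± 0.33 (adjusted p = 0.0905). Each of these genes had 1 probe. Gadd45a, a growth arrest gene, gave a difference of 2.92 ± 0.99 (adjusted p = 0.434), and its WT change of 1.98 ± 0.70 did not pass (adjusted p = 0.0948).

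A difference of responses is the sum of 2 parts, KO minus WT at 0 h and WT minus KO in the late window. The late part was the larger in 19 of the 28 lost rises, but in 2 of the 28 lost falls, where the 0 h part was larger in 26. At 0 h, 17 of the lost falls and 7 of the lost rises differed between the genotypes (adjusted p under 0.05, beside 6.64% of all genes). In the late window 2 of the lost falls and 17 of the lost rises differed (beside 6.48%). Since the sorting used these same arrays, the counts describe the classes and support nothing further. Over all 237 sorted genes the 0 h part was the larger in 150 and the late part in 87.

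**Figure D4:**
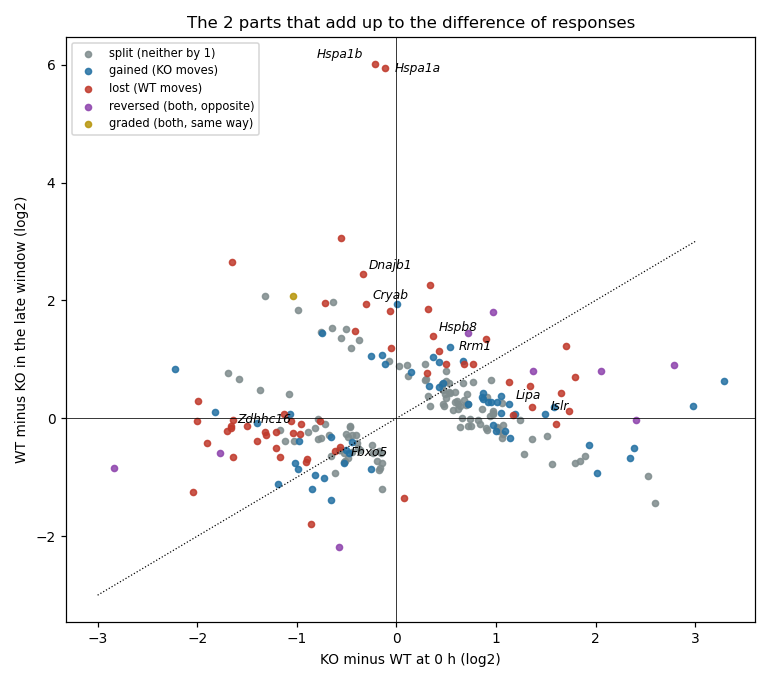
The parts that add up to the difference of responses for the 237 sorted genes: KO minus WT at 0 h (horizontal, log2) and WT minus KO in the late window (vertical, log2), coloured by class, with a dotted line where both parts are equal. Hspa1a, Hspa1b, Dnajb1 and Cryab lie near 0 on the horizontal axis and high on the vertical one, while Zdhhc16 lies at -1.66 and -0.16.

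Zdhhc16, a protein palmitoyltransferase, was the lost fall past the adjusted threshold. In WT it was at 1.80, 1.38 and 1.20 at 0 h and at 0.13, -0.24, -0.23 and 0.24 late. In KO it was at -0.24, -0.10 and -0.26 at 0 h and at 0.10, -0.23, -0.14 and 0.82 late. Only the unheated WT arrays stood apart. It fell in WT by 1.48 ± 0.23 (adjusted p = 0.00269), and the difference was -1.82 ± 0.32 (adjusted p = 0.0438), of which -1.66 was present at 0 h (adjusted p = 0.000429). Its 2 probes gave -3.24 and -0.36, so 1 of them carried the value.

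Other lost falls had the same form. Snx10, a sorting nexin of endosomes, lacked WT 0 h replicate 1, was at 1.45 and 0.62 in the other WT arrays at 0 h, and lay from -0.20 to 0.10 late. It fell in WT by 1.12 ± 0.25 (adjusted p = 0.0136), with a difference of -1.66 ± 0.33 (adjusted p = 0.0838). Cenpk, a kinetochore protein, fell in WT by 1.10 ± 0.21 (adjusted p = 0.00611), with a difference of -1.29 ± 0.30 (adjusted p = 0.169). Their late levels in WT and KO differed by -0.02 and -0.25, and by adjusted p neither late difference passed (0.978 and 0.533).

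Slc35a3, a Golgi transporter of UDP-N-acetylglucosamine, was an exception, as its late part (-1.79) was larger than its 0 h part. The 0 h part (-0.86) did not pass (adjusted p = 0.319). It was at 0.04, 0.10 and -0.09 at WT 0 h and at -2.30, -2.53, -2.19 and -0.31 late, the array of 8 h lying far above the other late ones. Its difference was -2.65 ± 0.62 (adjusted p = 0.192). The gene of the split class past the threshold, Fbxo5, an inhibitor of the anaphase-promoting complex, drew on both parts. The late part (-0.72) passed the adjusted threshold and the 0 h part (-0.52) did not. Fbxo5 went from 0.86, 0.77 and 0.83 to -0.04, -0.23, -0.13 and -0.03 in WT, and from 0.53, 0.17 and 0.21 to 0.83, 0.60, 0.63 and 0.42 in KO. The WT groups did not overlap, and the KO ones did. It fell in WT by 0.92 ± 0.16 (adjusted p = 0.00378) and gave 0.32 ± 0.16 in KO (adjusted p = 0.223), a difference of -1.24 ± 0.22 (adjusted p = 0.0438), with -1.44 and -1.06 in its probes.

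The gained falls numbered 36 genes, chosen by their fall in KO. Lipa encodes lysosomal acid lipase, which frees cholesterol from its esters. In KO it went from 1.89, 1.33 and 1.37 to 0.22, 0.49, 0.30 and 0.25, and in WT from 0.56, 0.44 and 0.18 to 0.34, 0.60, 0.64 and 0.70. Within the contrast the unheated KO arrays stood above the rest, and the late arrays of both genotypes overlapped the range of unheated WT. Lipa fell in KO by 1.21 ± 0.17 (2.31-fold, adjusted p = 0.000602), WT gave 0.17 ± 0.17 (adjusted p = 0.573), and the difference was 1.38 ± 0.25 (adjusted p = 0.0438).

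Islr, a secreted leucine-rich repeat protein of mesenchymal cells, had the same form. In KO it went from 1.40, 1.03 and 1.42 to -0.32, -0.34, -0.23 and 0.07, and in WT it lay from -0.23 to -0.18 at 0 h and from -0.42 to 0.03 late. Within the contrast the unheated KO arrays were again above the rest. It fell in KO by 1.49 ± 0.20 (adjusted p = 0.000498), and the difference was 1.56 ± 0.28 (adjusted p = 0.0438). The 0 h part was 1.13 for Lipa (adjusted p = 0.00109) and 1.49 for Islr (adjusted p = 0.000356), and the late part was 0.25 and 0.07. Each had 1 probe.

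Rrm1, the large subunit of ribonucleotide reductase, which makes deoxynucleotides, differed from both in that the genotypes stood apart late. In KO it went from 2.51, 3.19 and 1.98 to 0.44, 0.47, 0.08 and 0.50, and in WT from 1.79, 2.23 and 2.05 to 1.77, 1.48, 1.54 and 1.54. The late KO arrays were lower than every other array. It fell in KO by 2.19 ± 0.23 (4.56-fold, adjusted p = 0.000274), WT gave -0.44 ± 0.23 (adjusted p = 0.243), and the difference was 1.75 ± 0.32 (adjusted p = 0.0498). Its 2 probes gave 0.57 and 2.92, so 1 of them carried much of the value. With 1 probe per gene the difference was 0.57 (limma adjusted p = 0.618). At 0 h the genotypes differed by 0.54 (adjusted p = 0.220), and late by 1.21 (adjusted p = 0.00175). The probes disagreed in sign at 0 h (KO minus WT -0.52 and 1.60) and agreed late (WT minus KO 1.09 and 1.32).

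Other gained falls did not pass the adjusted threshold. Txnip, the thioredoxin-interacting protein that limits glucose uptake, fell in KO by 2.04 ± 0.24 (adjusted p = 0.000366), from 1.89, 1.31 and 1.77 to -0.11, -0.64, -0.54 and -0.25. In WT it gave -0.26 ± 0.24 (adjusted p = 0.544), and the difference was 1.78 ± 0.35 (adjusted p = 0.0664). S1pr3, a receptor for sphingosine 1-phosphate, fell in KO by 1.38 ± 0.21 (adjusted p = 0.000854), with a difference of 1.48 ± 0.30 (adjusted p = 0.0853). Cxcl12, a chemokine, fell in KO by 1.65 ± 0.20 (adjusted p = 0.000366), with a difference of 1.10 ± 0.28 (adjusted p = 0.243). All 3 were higher in KO at 0 h, by 1.59, 1.94 and 2.02 (adjusted p of 0.00115, 8.05e-05 and 2.5e-05). Zfp362, a zinc finger gene, was not, with 0.00 at 0 h. It fell in KO by 1.40 ± 0.26 (adjusted p = 0.00263), and its difference of 1.95 ± 0.37 just missed the threshold.

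The width of the arrays differed between the groups. The spread of probe values, as the median absolute deviation scaled to an SD, was 0.682 to 0.851 in the late KO arrays and 0.804 to 1.12 in KO at 0 h, against 0.814 to 1.10 in WT late and 1.08 to 1.12 in WT at 0 h. WT 0 h replicate 3 had the fewest values (39037) and the lowest array weight (0.402). With every array scaled to 1 width there were 25 lost rises, 15 lost falls, 35 gained rises and 54 gained falls. Quantile normalization gave 24 lost rises, 16 lost falls, 26 gained rises and 69 gained falls. The number of lost rises thus stayed near 28 under both, beside 22 to 55 when single arrays were left out. These counts do not show whether the same genes stayed in the class. The part of array width was not tested for any class. Of the 237 genes, 202 were also sorted after quantile normalization and 197 after scaling.

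The gained rises numbered 18 genes, and the difference of responses passed the adjusted threshold in 0 of them. Egr1, an immediate early transcription factor, went in KO from 0.20, 0.09 and -0.42 to 2.66, 2.14, 2.99 and 3.18. In WT it went from 1.26, 0.27 and 0.32 to 1.56, 0.86, 1.30 and 1.72. The late KO arrays were above the other contrasted arrays, and the WT groups overlapped. It rose in KO by 2.79 ± 0.44 (6.91-fold, adjusted p = 0.000909), WT gave 0.75 ± 0.44 (adjusted p = 0.313), and the difference was -2.04 ± 0.62 (adjusted p = 0.379).

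Ccl2, a chemokine that attracts monocytes, went in KO from -0.48, -0.73 and -0.84 to 1.18, 1.46, 0.91 and 0.73, and lay from 0.94 to 1.31 at 0 h and from 0.89 to 1.80 late in WT. Within the contrast the unheated KO arrays lay below the rest. It rose in KO by 1.75 ± 0.36 (adjusted p = 0.00505), with a difference of -1.70 ± 0.51 (adjusted p = 0.372), and at 0 h KO was lower by 1.82 on the log2 scale (KO minus WT -1.82, adjusted p = 0.00790). Gadd45g, a stress sensor of the growth arrest family, had the same form, with a rise in KO of 1.23 ± 0.33 (adjusted p = 0.0236) and a difference of -1.47 ± 0.47 (adjusted p = 0.420). Slc25a51, a mitochondrial NAD carrier, rose in KO by 1.10 ± 0.20 (adjusted p = 0.00227), with WT at -0.01 ± 0.20. Its difference was -1.11 ± 0.28 (adjusted p = 0.260). The 4 probes of Slc25a51 gave -3.15, -0.71, -0.40 and -0.03, so 1 of them carried much of the value. With 1 probe per gene the difference was -0.03 (limma adjusted p = 0.994).

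The reversed class was small, and each of its 9 genes rested on 1 probe. In Lars, Farsb, Akr7a5, Il17rc, Fbxo9 and Nnt, WT moved up and KO down. In Angel1, Wdr45 and Nkx2-4, WT moved down and KO up. The KO rise of Wdr45 came from 1 array, as KO at 0 h was at -0.62, -4.92 and -0.42. Its late KO arrays, from -1.11 to -0.63, lay below the remaining ones at 0 h. For Akr7a5, WT at 0 h was at -0.465, -0.64 and -3.13, so 1 array made much of the WT rise. Lars, the cytosolic leucyl-tRNA synthetase, went in WT from -0.88, -0.81 and -1.06 to -0.16, 1.08, 0.22 and -0.34, and in KO from -0.13, -0.61 and 0.14 to -0.72, -1.12, -1.59 and -1.56. The late arrays did not overlap those at 0 h in either genotype. Lars rose in WT by 1.12 ± 0.32 (adjusted p = 0.0428) and fell in KO by 1.05 ± 0.32 (adjusted p = 0.0433), but its difference of 2.17 ± 0.45 did not pass (adjusted p = 0.0933). Farsb, a subunit of phenylalanyl-tRNA synthetase, gave 1.46 ± 0.55 in WT and -1.31 ± 0.55 in KO, neither of which passed (adjusted p = 0.112 and 0.138). For the other 7 genes too, the response of neither genotype passed. Fbxo9, Nnt and Wdr45 were measured on 13 and Angel1 on 12 of the 14 arrays. Leaving out single arrays changed the number of reversed genes to between 4 and 12.

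Outside the chaperones, each gene list held 0 to 3 sorted genes. That was 0% to 16.7% of the measured members (core histones highest), beside 2.23% sorted over all genes. So small a count in a short list says little about the list. The immediate early and stress transcription factors had a negative median difference, -0.25 over 27 measured genes, with 3 sorted: Egr1 and Gadd45g negative, Gadd45a positive. In KO 9 of the 27 rose and 1 fell (beside 3.86% and 6.8% of all genes), and in WT 3 rose and 2 fell (beside 3.6% and 3.67%). No gene of the proteasome (36 measured), mitosis (35), ribosomal protein (62), respiratory chain (72), glycolysis (18) or actin cytoskeleton (35) lists was sorted. The ribosomal proteins had a median of -0.22, with 4 of 62 differences positive, and 0 of them rose or fell in either genotype. The extracellular matrix list gave 2 of 44 (Col6a2 and Sparcl1), DNA replication 2 of 36 (Rrm1 and Fen1), and the interferon and inflammatory list 2 of 30 (Cxcl12 positive, Ccl2 negative). The lists of ribosome biogenesis (Gnl3), cholesterol synthesis (Lss), antioxidant and metal response (Gclm), p53 targets (Gadd45a) and core histones (H2bc4) gave 1 each, of 30, 14, 24, 15 and 6 measured. The ubiquitin and p97 list gave 3 of 21 (Skp1, Usp5 and Zfand2a).

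**Figure D5:**
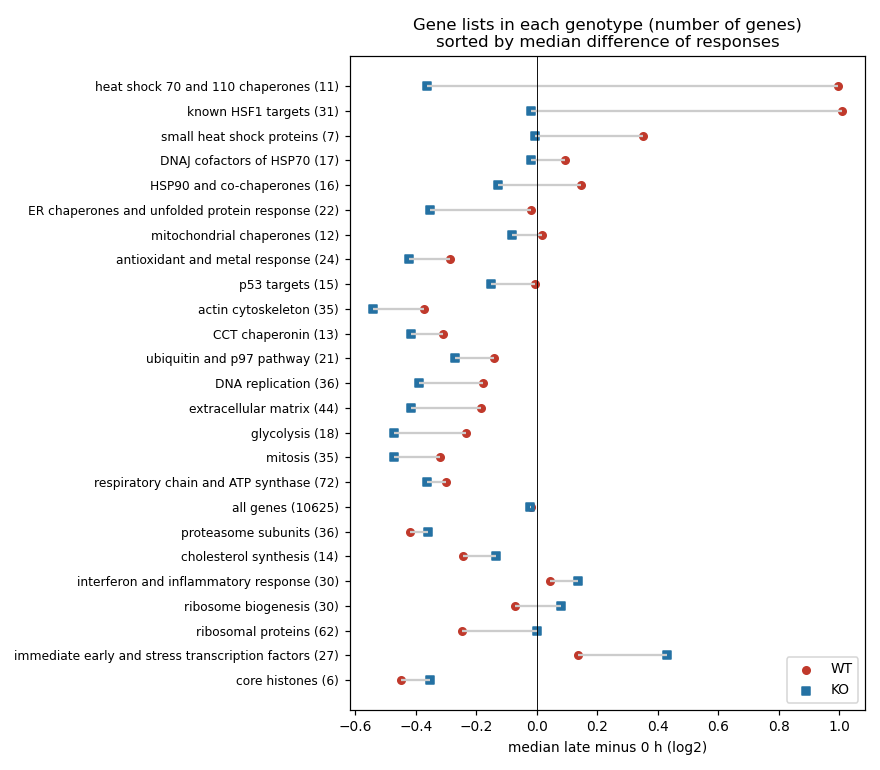
Median late minus 0 h log2 difference in WT (red circles) and KO (blue squares) for 24 gene lists and for all genes, ordered by the median difference of responses, with the number of measured genes in brackets. The known HSF1 targets (WT 1.01, KO -0.02) and the HSP70 and HSP110 chaperones stand apart from the other lists, and the immediate early and stress factors lie higher in KO.

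None of the 10 calls held through every omission of 1 array, while the sizes moved less. With limma, 0 genes passed without KO 0 h replicate 1, WT 0 h replicate 3, the KO arrays of 6 or 8 h, or the WT arrays of 3 or 6 h, each left out alone, and 765 to 887 then had an unadjusted p under 0.05. Without the KO array of 4 h only Zfp362 passed, and without that of 3 h only Cryab. Without the WT array of 4 h Cryab, Hspb8 and Dnajb1 passed. The other 5 omissions gave 2 to 6 calls, of which 2 to 4 were among the 10. Cryab passed in 7 of 14 omissions (difference 1.54 to 1.77), Dnajb1 in 4 (1.98 to 2.43), Hspb8 in 3 (1.64 to 1.96), Zdhhc16 in 3 (-3.33 to -1.63) and Rrm1 in 1 (1.43 to 2.04). Hspa1b passed in 1 of the 12 omissions in which it could be fitted (5.54 to 6.03). Hspa1a (5.65 to 6.11), Lipa (1.20 to 1.48), Islr (1.49 to 1.69) and Fbxo5 (-1.35 to -1.05) passed in 0 of 14. Zdhhc16 reached -3.17 and -3.33 without KO 0 h replicate 2 or 3, when 1 of its probes fell below the minimum of values. Omitting WT 0 h replicate 1 gave 43 lost rises and 55 lost falls, omitting replicate 2 gave 55 lost rises, and omitting replicate 3 gave 44 lost falls. The gained falls numbered 21 without KO 0 h replicate 1. The gained rises numbered 11 without WT 0 h replicate 1, 10 without replicate 3, and 9 when the WT array of 4 h was omitted. The reversed genes numbered 4 without the KO array of 6 h and 5 without WT 0 h replicate 3 or the WT array of 3 h.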

How the data were processed

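Transcripts were measured on 20 two-colour arrays. Per the labels, Cy5 held the sample and Cy3 the common pool. The deposited series table holds log ratios, read as log2. Their base is not stated. Values reach 10.2 in size, beyond the 4.82 that 16-bit signals allow in log10 units. The authors' background correction, spot filter and normalization are not given in the sources used here, and spot intensities were not used.

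Each array was centred on its median. Of 42624 probes, 21701 listed 1 gene in the platform annotation, and those with several (1124) or none (19799) were left out. A probe needed at least 2 values in each of 6 groups (genotype by 0 h, early and late), and missing values were not imputed. A gene's value was the mean of its probes, each relative to its own mean. This gave 10625 genes, 5182 with 1 probe. A model with 1 mean per group was fitted to all 20 arrays with limma 3.58.1 (lmFit, eBayes; prior degrees of freedom 3.36) in R 4.3.3. All p-values are two-sided and were adjusted by Benjamini-Hochberg across the genes of a contrast, and errors are SEs of the moderated fit. Other steps used Python 3.11.15. The fit was tried on simulated data with independent noise and shifts added to the late WT arrays alone. Those data lacked change over time and unequal array widths, so the trial does not cover these features.

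Genes were named by rule: those past the adjusted threshold, the 10 highest and 10 lowest differences, up to 6 of smallest p per class and direction, up to 3 per gene list, and the main chaperones. Rpa3, Ctsa and others beside a threshold or a short count were named after their values were seen. The contrast, classes and 24 function and 7 cell type lists were chosen with earlier results of these data known. Alternatives were other centring and scaling, 1 probe per gene, complete probes, the 14 arrays alone, parts of the late window, array weights, a robust prior, a replicate block, single arrays left out, and other sizes of move, sorting thresholds, log base and motif.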

Additional observations from a re-analysis of the deposited data

Results flagged for a closer look

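The test of the difference between the genotypes' responses passed for 10 genes (limma adjusted p under 0.05): Cryab (1.64), Hspb8 (1.77), Dnajb1 (2.11), Hspa1b (5.80), Hspa1a (5.84), Lipa (1.38), Islr (1.56), Rrm1 (1.75), Fbxo5 (-1.24) and Zdhhc16 (-1.82), as log2 differences.

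Single late arrays lay far from the other 3 of their group in 4 of the 152 gene groups examined by Dixon's test, which by chance marks about 1 in 20. Chrd was lowest in WT at 4 h (0.42), Mymk, a muscle fusion factor, was lowest in WT at 6 h (-0.25), Rrm1 was lowest in KO at 6 h (0.085), and Slc35a3 was highest in WT at 8 h (-0.31).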

How the results depend on the processing

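The number of calls, 10 in the main fit, was 0 without centring (799 genes with an unadjusted p under 0.05, limma). It was 0 when KO at 6 and 8 h was omitted (693). With 1 probe per gene only Zdhhc16 passed, and with 6 and 8 h alone only Cryab. With 3 and 4 h alone only Slc35a3 passed, which is not among the 10. Other settings kept more. Those among the 10 were 10 of 10 calls with the robust prior, 9 of 11 with quantile normalization and 9 of 14 with array weights. They were 8 of 10 with complete probes, 7 of 9 with 1 width and 7 of 11 with the 14 arrays alone. With the 0 h number and heating time as a replicate block, 0 passed (908). Same-numbered or same-time arrays did not deviate together from their group means (r from -0.02 to 0.06). Of 20 arrays, 6 correlated best with their own number or time, among the 3 or 4 arrays of the other genotype in that window. Whether such arrays shared a culture or a batch cannot be told from these values and was not tested. The sorted genes numbered 131 with 3 and 4 h alone. The classes changed as follows. With quantile normalization there were 16 lost falls and 69 gained falls, and with 1 width 15 lost falls, 35 gained rises and 5 reversed genes. Complete probes gave 18 lost falls. The hours 3 and 4 alone gave 10 gained rises and 19 gained falls. The hours 6 and 8 alone and array weights each gave 4 reversed genes, and omitting KO at 6 and 8 h gave 5. A move of 1.5-fold gave 59 gained falls and 30 reversed genes, a move by adjusted p 64 and 3, and natural logs 61 and 18. Sorting at p under 0.05 gave 69 lost rises, 79 lost falls, 45 gained rises, 81 gained falls and 23 reversed genes. Single omissions gave 0 to 6 calls, 190 to 295 sorted genes, 22 to 55 lost rises, 22 to 55 lost falls, 9 to 25 gained rises, 21 to 49 gained falls and 4 to 12 reversed genes. The causes of these changes were not tested. Cacybp (-0.29) and Hspb1 (-0.29) changed sign with 1 probe per gene. Of the 135 named genes, 78 were followed through the settings, namely those sorted and the main chaperones. Of these 78, 10 lost a call under some setting and 11 gained one. The median of the known HSF1 targets stayed between 0.88 and 1.02 over 17 settings, while the medians of the cholesterol, glycolysis, interferon, mitosis, proteasome and respiratory chain lists changed sign in 2 to 7 of them.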

Other observations

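Lipa, the lysosomal lipase among the gained falls, was set beside 32 lysosomal genes listed after its value was seen, without a test. Of the 25 measured, 23 had a positive difference of responses, beside 5567 of all 10625 genes, and the median was 0.34 beside 0.02. Of these, 3 were sorted (Lipa, Ctsa and Ctsb), beside 2.23% of all genes. In KO 4 fell and 0 rose, beside 6.8% and 3.86% of all genes, and in WT 1 fell and 0 rose, beside 3.67% and 3.6%. Ctsa and Ctsb encode cathepsins, which work in the lysosome.

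Lars and Farsb of the reversed class were likewise set beside the aminoacyl-tRNA synthetases, listed after the values were seen. Of the 16 measured, 7 had a positive difference, the median was -0.05, and the only ones sorted were Lars and Farsb, which the list was built around (beside 2.23% of all genes). In WT 1 rose and in KO 1 fell, beside 3.6% and 6.8% of all genes.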
